A study of Mus musculus with 4 samples.

Results

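Cells that met a gate for gamma-delta T cells of mouse ascites were found in 1 of the 4 libraries, that of mice given BTYNB with a control antibody. There 145 of 18283 kept cells met the gate, out of 45178 kept cells in the series. A cell was a member when it held 2 or more unique molecular identifiers (UMIs, 1 per captured transcript) of Cd3d, Cd3e and Cd3g together, and 1 or more of Trdc and Trgc1 together, the delta constant gene and the first gamma constant gene, also called Tcrg-C1. It also had to hold no UMI of Cd4, Cd8a, Cd8b1, Foxp3 or Ncr1, and no more than 2 UMIs of Cd79a and Cd79b, of Lyz2, or of the 4 keratins Krt7, Krt8, Krt18 and Krt19. The comparison cells were the 533 cells of the same gate and library that held no UMI of Trdc or Trgc1.

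All 4 groups were C57BL/6 mice that carried ID8-Trp53-/- cells, a mouse ovarian surface epithelial tumour line lacking Trp53, in the peritoneal cavity for 7 days before treatment. The controls received DMSO and an IgG control antibody, and the others received BTYNB, a small-molecule inhibitor of the RNA-binding protein Igf2bp1, with the IgG control antibody, DMSO with a PD1 blocking antibody, or both agents. Treatment was given 2 times a week up to an ascites volume of roughly 3 mL. The labels give 50 mg/kg BTYNB and 100 ng antibody a dose, amounts that differ from those in the study's methods. Ascites cells were pooled over the mice of a group before capture, so each group was 1 library with no replicate, no difference was tested, and all intervals are exact 95% intervals for counting error only.

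Gamma-delta T cells carry a receptor of a gamma and a delta chain in place of the alpha and beta chains of CD4 and CD8 T cells, and most of them lack both coreceptors. In mice they fall into a type 17 kind, which makes IL-17 and is held at barrier and serous surfaces, and a type 1 kind, which shares interferon-gamma and NK receptor genes with killer lymphocytes. Both kinds are known from the peritoneal cavity.

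The receptor gene segments are shown first because the account of these cells turns on which segments they transcribed. These are the last 60 bases of the delta segment Trdv4 and of the gamma segments Trgv6 and Trgv1 in the GENCODE M21 transcripts, 5′ to 3′, with the codon of the conserved cysteine that opens the third hypervariable loop in capitals.
Trdv4: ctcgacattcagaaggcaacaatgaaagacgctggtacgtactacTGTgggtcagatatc
Trgv6: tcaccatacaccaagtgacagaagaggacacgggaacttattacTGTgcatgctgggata
Trgv1: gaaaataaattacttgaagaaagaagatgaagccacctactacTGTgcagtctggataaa

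The first 60 bases of the gamma constant regions are shown because they set how far reads can be told apart. Capitals mark bases that differ from Trgc1 at the same place.
Trgc1: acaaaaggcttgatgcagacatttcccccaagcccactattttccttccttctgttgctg
Trgc2: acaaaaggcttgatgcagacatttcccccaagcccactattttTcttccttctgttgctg
Trgc3: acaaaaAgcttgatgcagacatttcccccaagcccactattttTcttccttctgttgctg
Trgc4: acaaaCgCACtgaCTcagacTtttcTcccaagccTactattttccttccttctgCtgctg
Over the first 300 bases, Trgc2 matched Trgc1 at 97.3%, Trgc3 at 95.7% and Trgc4 at 82.7% of positions, so the split of reads among Trgc1, Trgc2 and Trgc3 is uncertain and that between these and Trgc4 less so.

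The libraries differed in which cells they held and how deep those were. The CD3 gate, which is the member gate without its limits on Cd4, Cd8, Foxp3 and receptor UMIs, held 4 control cells, 2201 BTYNB cells, 6 anti-PD-1 cells and 50 combination cells. Members were 0.793% of the kept BTYNB cells (0.670 to 0.933%) and 6.59% of its CD3 gate (5.59 to 7.71%). In the combination library 0 of 50 CD3 gate cells were members, which allows a share of up to 6%, taking 3 cells as the limit that a count of 0 allows. With 4 and 6 gated cells, the control and anti-PD-1 libraries set no useful limit on that share. As shares of all kept cells, counts of 0 allow up to 0.0383% in the control, 0.0250% in the anti-PD-1 and 0.0426% in the combination library. The smallest deposited cell held 869 UMIs in the BTYNB library but 4438, 3533 and 5115 in the control, anti-PD-1 and combination libraries, and only 5 members reached 5115 UMIs, so treatment and the depth of the deposited cells cannot be told apart. No member barcode was shared with another library, and no pair of libraries shared more than 4 barcodes.

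The rule itself gives every member Cd3 and receptor UMIs, so these only describe the gate. Members of the BTYNB library held a median of 4 Cd3 UMIs (2 to 16), 3 Trdc UMIs (0 to 22) and 1 Trgc1 UMI (0 to 10), at a median of 2010 UMIs and 1142 genes a cell. Both receptor genes were seen in 77 members, Trdc alone in 43 and Trgc1 alone in 25. As the rule used it, Trdc was 1939 CPM (a gene's UMIs summed over the cells and scaled to the same total in each class; 1794 to 2092) in members and 0 in comparison cells. In classes that the rule did not fix, Trdc was 110 CPM in NK cells and 1.10 CPM in B cells. It was seen in 91 of 356 NK cells (25.6%), and in 0.571% of tumour cells at a median of 15191 UMIs.

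The 25 members with Trgc1 alone stood apart from the others. Trac, the alpha constant gene, was 671 CPM in them, against 103 CPM in members with both receptor genes, 156 CPM in those with Trdc alone and 987 CPM in comparison cells. By Trac, the label is thus least secure for these 25 cells. Trdc, seen in 91 of 356 NK cells, is not particular to members either. Over all members Trac was 225 CPM, a log2 ratio to comparison cells of -2.13 (-2.49 to -1.80). Trac was found in 39 members and reached 8.22 CPM in B cells. The beta constant genes differed less: Trbc2 was 649 CPM in members and 951 CPM in comparison cells (log2 ratio -0.55), and Trbc1 was 249 and 260 CPM. Trbc2 was seen in 94 of 145 members, and Trac or Trbc2 in 104.

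**Figure D1:**
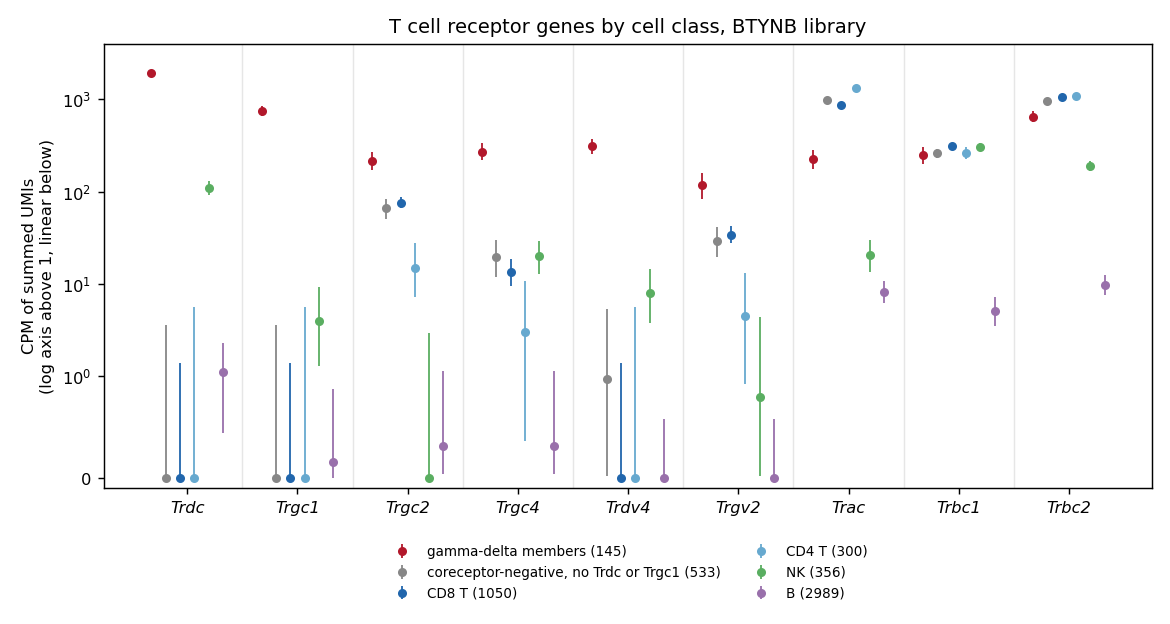
CPM of 9 receptor genes in 6 cell classes of the BTYNB library, on an axis that is logarithmic above 1 and linear below; points are summed UMIs and bars exact 95% Poisson intervals, with the number of cells in parentheses. Trdc and Trgc1, which chose the classes, are 0 in comparison, CD8 and CD4 T cells, while Trdv4 stands at 310 CPM in members and at 7.89 CPM or lower elsewhere, and Trac is lower in members than in the other T cells.

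Variable segments were seen in 74 of 145 members, or 51.0% (42.6 to 59.4%), and in 25 of 533 comparison cells, or 4.69%. The segment and the constant gene are read from the same transcript, so these shares are not independent of the rule. Trdv4, a delta segment known from IL-17-producing gamma-delta T cells that pair it with Trgv6, was the most frequent, with 106 UMIs in 41 members (1 to 12 UMIs a cell, median 2) and 1 UMI in the comparison cells. Of the 84 kept BTYNB cells with a Trdv4 UMI, 41 were members, 5 were other CD3 gate cells, 10 were NK cells by the gate, 2 were tumour cells and 26 were in none of these classes.

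The gamma segments were sparser. Trgv2 was seen in 29 members with 40 UMIs, but also at 34.1 CPM in CD8 T cells against 117 CPM in members, so it was not particular to these cells. Trgv1 had 12 UMIs in 11 members, Trgv6 had 6 UMIs in 6, Trgv5 had 4 UMIs in 3 and Trgv4 had 2 UMIs in 2. Trgc2 was seen in 18 of 29 members with Trgv2 and in 26 of 116 without it, Trgc4 in 7 of 11 with Trgv1 and in 52 of 134 without it, and Trgc1 in 6 of 6 with Trgv6 and in 96 of 139 without it. Trdv4 was seen in 3 of the 6 and in 38 of the 139, so few cells stand behind either pairing.

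The other gamma constant genes, which the rule did not read, were also higher in members. Trgc4 was 272 CPM in members and 19.3 CPM in comparison cells, a log2 ratio of 3.75 (3.11 to 4.60), and Trgc2 was 216 and 65.5 CPM, a log2 ratio of 1.71 (1.23 to 2.22). Trgc3 had 4 UMIs in 1 member. Since members were chosen by reads of near-identical genes, these values describe the gate and are no finding of their own.

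Across genes, 6279 had 30 or more UMIs over both sides, with a median log2 ratio of 0.02 (CPM plus 1, members over comparison cells). Of these, 4.11% stood 2-fold or more higher in members and 3.77% 2-fold or more lower, which is 258 and 237 genes. Because the gate chose the cells, these counts and the list counts that follow describe the members and carry no test. In 4 lists of type 17 genes together, 24 of 36 genes had enough UMIs, 17 of the 24 were 2-fold or more higher, none was 2-fold or more lower, and the median log2 ratio was 1.48. In 3 lists of type 1 genes, 3 of 30 were higher, none was lower and the median was 0.48. The counts depend on the cells set against the members. Against CD4 T cells 12 of 24 type 17 genes were higher and 1 lower, against CD8 T cells 20 of 25 were higher and none lower, and against NK cells 18 of 22 and none. Of the type 1 genes, 13 of 25 were higher and 1 lower than in CD4 T cells, with a median of 1.20, 6 of 32 higher and 5 lower than in CD8 T cells, and 3 of 32 higher and 21 lower than in NK cells, with a median of -1.24. Single genes can reach the UMI minimum through either side.

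**Figure D2:**
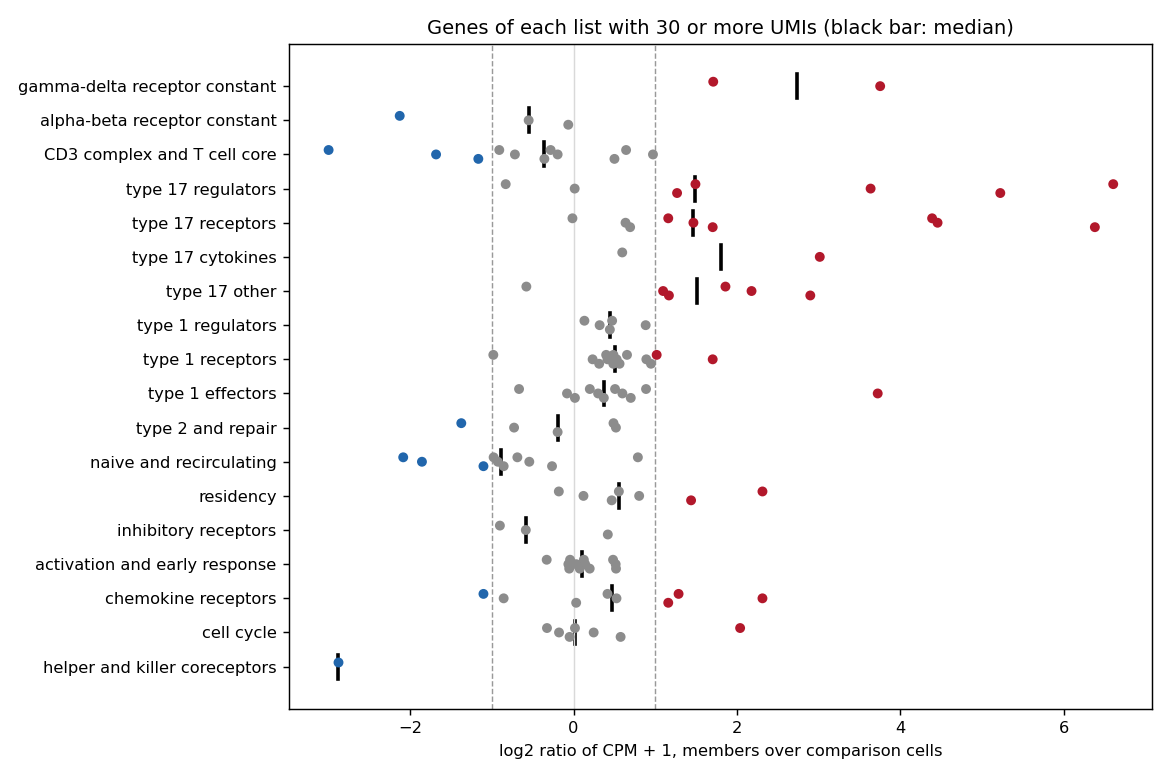
Log2 ratio of CPM plus 1, members over comparison cells, for each gene with 30 or more UMIs in 18 gene lists, leaving out the genes of the gate; red points are 2-fold or more higher, blue points 2-fold or more lower, black bars list medians and dashed lines the 2-fold limits. The 4 type 17 lists hold 17 genes past the upper limit, and the naive list has a median of -0.89.

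The regulators of the type 17 kind were led by genes close to absent from other T cells. Blk, a Src-family kinase of B cells and of IL-17-producing gamma-delta T cells, was 377 CPM in members and 2.89 CPM in comparison cells (log2 ratio 6.60, 5.45 to 9.33). Sox13, a transcription factor of the gamma-delta lineage, was 108 and 1.93 CPM, a log2 ratio of 5.22. Zbtb16, the PLZF factor of innate-like T cells, was 155 and 11.6 CPM, a log2 ratio of 3.63. These genes were seen in a minority of members, with Blk in 48, Zbtb16 in 31 and Sox13 in 26 of 145 cells. Maf and Rora, broader regulators, were higher by log2 ratios of 1.49 and 1.27, while Stat3 (0.01) and Batf (-0.83) did not pass the 2-fold limit.

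Receptors of the type 17 kind followed. Scart1, a scavenger receptor of gamma-delta T cells also called Cd163l1, had 220 UMIs in 55 members (1 to 11 a cell, median 3) and 7 UMIs in 3 comparison cells, or 643 against 6.74 CPM (log2 ratio 6.38, 5.51 to 7.91). Il23r, the IL-23 receptor chain, was 295 against 12.5 CPM (log2 ratio 4.45), and Il1r1, the IL-1 receptor, 363 against 16.4 CPM (log2 ratio 4.39), of which 26 of 124 UMIs came from 1 cell. Il2ra, Ramp1 and Ccr2 were higher by log2 ratios of 1.70, 1.47 and 1.16, while Il7r, the IL-7 receptor of both kinds, was 1339 CPM in members and 1352 CPM in comparison cells. Ccr6, a chemokine receptor often used to mark type 17 cells, had 0 UMIs in members and 9 in comparison cells, and stood at 80.0 CPM in B cells.

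The cytokine genes were seen in few cells. Il17a had 29 UMIs in 15 members and 10 UMIs in 6 comparison cells, or 84.8 against 9.63 CPM (log2 ratio 3.01, 2.06 to 4.34). Il17f had 1 UMI, Il22 none and Csf2 3 in members. Among the remaining genes of these lists, Serpinb1a, a protease inhibitor, and the membrane protein genes Tmem176a and Tmem176b were higher by log2 ratios of 2.90, 2.18 and 1.86.

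To set classes of different depth side by side, each cell was thinned to 1000 UMIs. A UMI of any of 8 type 17 genes (Il17a, Il17f, Il23r, Ccr6, Blk, Sox13, Scart1, Scart2) was left in 63 of 143 members, or 44.1% (35.8 to 52.6%), against 2.70% of 519 comparison cells, 2.79% of 1041 CD8 T cells, 3.37% of 297 CD4 T cells and 0.282% of 354 NK cells. Cells under 1000 UMIs were left out, 2 of them members and 14 comparison cells. Unthinned, the shares were 46.9%, 4.32%, 6%, 5.33% and 1.12%. B cells, which themselves express Blk and Ccr6, were at 26.8% thinned and 43.7% unthinned. Without those 2 genes, a choice made after seeing the data, B cells were at 0.271%, members at 41.3% and comparison cells at 1.93%.

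Gene by gene, members also had the highest thinned share for Scart1, Il23r, Il1r1 and Cxcr6. Scart1 was left in 32.2% of members (24.6 to 40.5%), 0.385% of comparison cells and 0.0338% of B cells. Il23r was left in 16.8%, 0.193% and 0.0676%, and Il1r1 in 24.5%, 1.16% and 0.372%. Cxcr6, a chemokine receptor of tissue-held lymphocytes, was less restricted, at 20.3% of members, 4.43% of comparison cells and 6.40% of CD4 T cells.

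**Figure D3:**
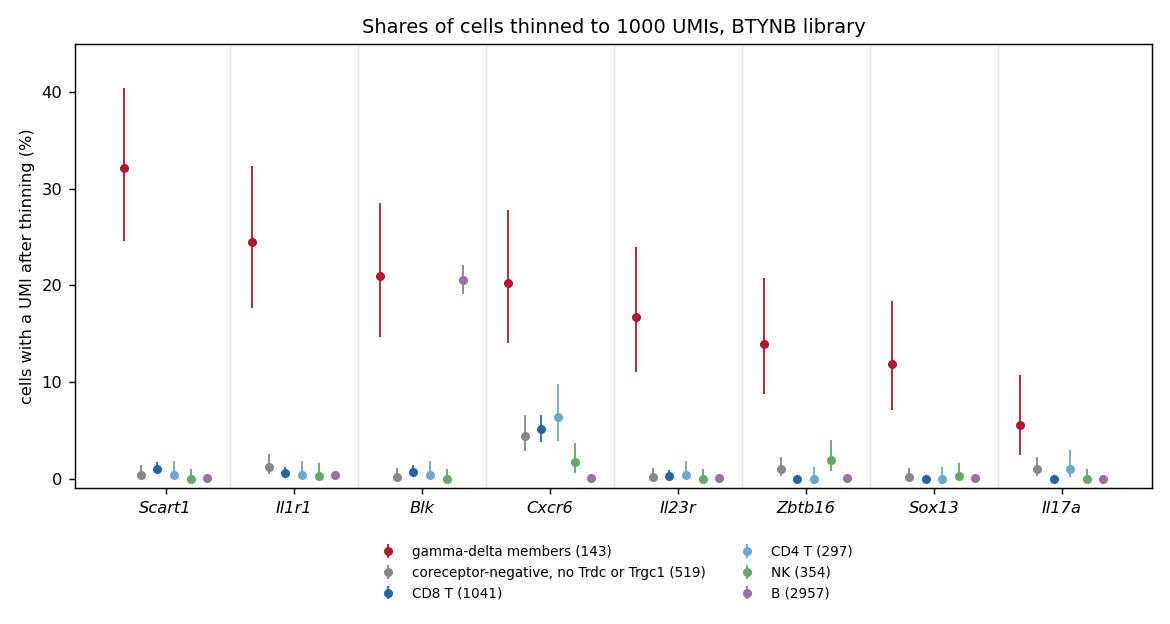
Share of cells, in percent, with a UMI of each of 8 genes after thinning every cell to 1000 UMIs, in 6 cell classes of the BTYNB library; bars are exact 95% binomial intervals and the number of thinned cells is in parentheses. Members lie above every other class for each gene but Blk, whose interval in members (14.6 to 28.6%) holds the B cell share of 20.6%.

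Type 1 genes differed among themselves in how members stood to the other lymphocytes. Ccl5, a chemokine of memory and killer T cells, was 3726 CPM in members, 2293 CPM in comparison cells, 3631 CPM in CD8 T cells and 3172 CPM in NK cells. Ly6c2, a memory marker, was 649, 492, 940 and 135 CPM in the same order, and Klrd1, the CD94 chain of NK receptors, 392, 272, 368 and 968 CPM. The type 1 genes past the 2-fold limit against comparison cells were Klrc1 (log2 ratio 1.70), Klre1 (1.02) and Gzma (3.72). Klre1 was under the limit, at 0.70, with a Trdc UMI required, and at 0.71 to 0.95 with 2 receptor UMIs, a mitochondrial limit of 15%, another scaling or a pseudocount of 10 CPM, and 51 of 65 Gzma UMIs lay in 1 cell. Of the killing and interferon genes, Prf1 had 5 UMIs, Gzmb 8 and Ifng 9 in all members. Prf1, the pore-forming perforin, was 14.6 CPM in members, 17.3 in comparison cells, 91.5 in CD8 T cells and 268 in NK cells. Gzmb, a granzyme, was 23.4, 23.1, 86.7 and 295 CPM in the same order, and Ifng, the gene of interferon-gamma, 26.3, 42.4, 48.4 and 98.6 CPM. NK cells had the highest level of each, while Prf1 and Gzmb in members were at log2 ratios of -0.23 and 0.02 to comparison cells.

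Type 17 and type 1 UMIs lay mostly in different members. With 10 type 1 genes (Ccl5, Klrd1, Klrk1, Nkg7, Eomes, Tbx21, Ifng, Xcl1, Ly6c2, Cd27), 54 members had type 17 UMIs only, 75 had type 1 UMIs only, 14 had both and 2 had neither. The 14 cells with both held a median of 1.5 type 1 UMIs, against 23 in cells with type 1 UMIs only. Their median number of type 17 UMIs was 9.5, against 7 in cells with type 17 UMIs only. Ccl5 was seen in 54 of 54 members with Klrd1 and in 6 of 55 with Scart1.

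**Figure D4:**
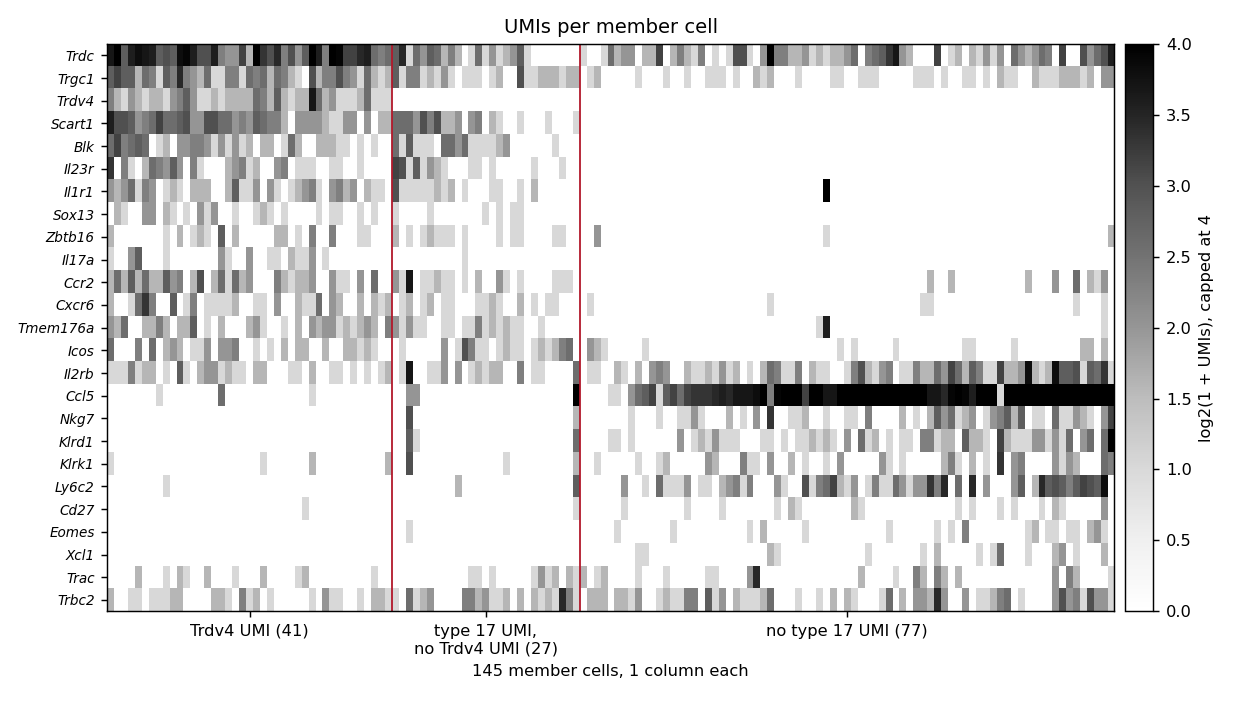
UMIs per cell, as log2 of 1 plus the UMIs capped at 4, for 25 genes (vertical axis) in the 145 members (horizontal axis, 1 column each), split by Trdv4 and type 17 UMIs and ordered by type 17 and then type 1 UMIs. Dark Scart1, Blk and Il23r columns lie among the 68 cells on the left, and dark Ccl5 and Ly6c2 columns lie mostly among the 77 on the right.

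Members were next split by the Trdv4 segment shown above, with no test, since the split was made on the same counts. The 41 cells with one and the 104 without had median depths of 1996 and 2033.5 UMIs. All 41 held a type 17 UMI, against 27 of 104 of the others (26.0%, 17.9 to 35.5%). Scart1 was seen in 38 of 41 and 17 of 104, Blk in 31 of 41 and 17 of 104, and Il23r in 24 of 41 and 13 of 104. Il17a was seen in 14 of 41 (34.1%, 20.1 to 50.6%) and 1 of 104, and 28 of the 29 Il17a UMIs of the members came with Trdv4.

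The type 1 genes ran the other way. Klrd1 was seen in 0 of 41 cells with Trdv4, which allows up to 7.32%, and in 54 of 104 without. Nkg7, a cytotoxic granule gene, was seen in 0 of 41 and 44 of 104, Ly6c2 in 1 of 41 and 54 of 104, and Ccl5 in 3 of 41 and 75 of 104. Trac differed little, at 10 of 41 and 29 of 104, so alpha transcripts were not confined to the cells without Trdv4.

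Trdc was 4090 CPM with Trdv4 and 1179 CPM without, but Trdv4 and Trdc are read from the same transcript, so the split itself chose cells rich in Trdc. Cd3g, a CD3 chain that the gate also used, was higher with Trdv4 by a log2 ratio of 1.59 (1.23 to 1.95). Signalling genes outside the rule differed between these cells as well. Lck, the kinase that starts receptor signalling, had 1 UMI in 41 cells with Trdv4 and was seen in 53 of 104 without it, a log2 ratio of -5.09 (-10.53 to -2.70). Zap70, Lat and Cd247, which act with the CD3 complex, were higher with Trdv4 by log2 ratios of 2.05, 1.71 and 1.20, while Cd28, a costimulatory receptor, was seen in 1 of 41 and 31 of 104. Cxcr6 and Ccr2 were higher with Trdv4 by 2.90 and 2.31. The early response genes Egr1 and Jun were higher by 1.75 and 1.25, but the rest of that list did not reach 2-fold higher. Fos, Fosb, Junb, Dusp1 and Nfkbia stood at 0.35 to 0.59, and Tnfaip3 at -0.02. Nr4a1, Nr4a2 and Nr4a3 stood at -0.24, -0.95 and -0.45, and Dusp2 at -2.01 (-2.82 to -1.29).

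**Figure D5:**
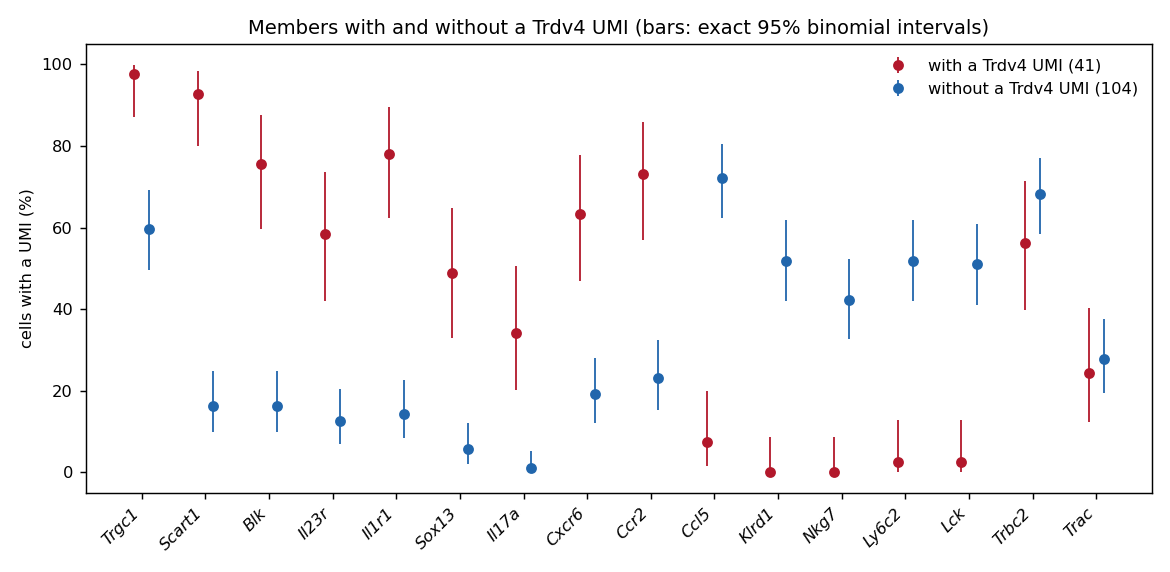
Share of cells, in percent, with a UMI of each of 16 genes among members with a Trdv4 UMI (41 cells, red) and without one (104 cells, blue); bars are exact 95% binomial intervals. Scart1 reaches 92.7% with Trdv4 and 16.3% without, Klrd1 0% and 51.9%, and Trac 24.4% and 27.9%.

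Genes of naive and helper T cells were among those lower in members than in comparison cells. In the naive list 3 of 10 genes were 2-fold or more lower and none was higher, with a median log2 ratio of -0.89. These were Dapl1 (-2.08), Igfbp4 (-1.86), and Ccr7, the lymph node homing chemokine receptor (-1.10). Without cells of more than 10000 UMIs, which leaves out 1 member, Igfbp4 was at -4.08. Ccr7 lay inside the 2-fold limit, at -0.81, with a Trdc UMI or 2 receptor UMIs required. The naive list also depended on the cells set against the members. Against CD4 T cells 1 of 9 genes was higher and 1 lower, with a median of -0.26. Against CD8 T cells 1 of 10 was higher and 2 lower, with a median of -0.62. Against NK cells 4 of 8 were higher and none lower, with a median of 0.95. Cd40lg, the helper ligand for B cells, had 3 UMIs in members and 74 in comparison cells (log2 ratio -2.89), and Il6ra, the IL-6 receptor, was 14.6 against 146 CPM (-3.24). Of 11 T cell core genes outside the rule, Cd6 (-3.00), Cd5 (-1.68) and Cd28 (-1.17) were lower, receptors that tune T cell receptor signals, and none was higher. Fas, a death receptor, and Slc28a2b, a nucleoside transporter, had 0 UMIs in members and 33 and 37 in comparison cells. The upper limits of their log2 ratios were -1.48 and -1.65. Pid1 and Plbd1 also had 0 UMIs in members, with upper limits of -1.52 and -1.48. The 33 Plbd1 UMIs of the comparison cells lay in 9 cells, 11 of them in 1 cell.

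The remaining lists differed less. Of 3 inhibitory receptor genes with enough UMIs none passed the limit, and Pdcd1, the target of the blocking antibody, had 4 UMIs in members and 5 in comparison cells. Of 12 early response genes none passed. Of 7 cell cycle genes only Ube2c did (2.04), and Mki67, the proliferation marker, was 73.1 against 82.8 CPM. In the residency list Cxcr6 (2.31) and Itgae, the CD103 integrin chain (1.44), were higher, and in the type 2 list Il1rl1, the IL-33 receptor, was lower (-1.37).

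One member held 19151 UMIs, where the next held 7753. It had 1 UMI each of Cd3d, Cd3e, Cd3g and Trdc and none of Trgc1, and it held 397 of 397 Saa3, 110 of 110 Col1a1, 111 of 111 Col1a2 and 90 of 90 Cxcl13 UMIs of the members, genes of acute phase, fibroblast and stromal cells. For 9 of the 20 genes highest by ratio, this cell held more of the UMIs than all other members together: Cxcl13, Cxcl5, Slpi, Flrt2, Saa3, Steap4, Pdgfra, Col1a1 and Col1a2. Without cells of more than 10000 UMIs, a choice made after seeing the data, 225 genes were higher and 259 lower, and the type 17 lists still had 17 of 24 genes higher. Blk, Scart1, Sox13, Il23r and Il1r1 then had log2 ratios of 6.68, 6.45, 5.29, 4.52 and 4.12. They were joined by Abi3bp, a matrix-binding protein (5.69, in 30 members), Clnk, an adaptor of immune receptors (in 27 members), and Adam12, a metalloprotease (3.96).

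Markers of other cell types were present on both sides. Summed over 7 macrophage genes, members had 129 CPM and comparison cells 85.7 CPM, over 7 B cell genes 146 and 143 CPM, and over 8 tumour genes 339 and 289 CPM. Apoe, the macrophage gene with enough UMIs, was 2-fold or more higher in members, at 76.0 against 16.4 CPM (log2 ratio 2.15), with 16 of its 26 UMIs in 1 member. The B cell genes Cd79b and Ms4a1 were at 0 UMIs in members. Over 9 NK cell genes the sums were 708 and 533 CPM, over 5 neutrophil genes 76.0 and 26.97 CPM, over 6 dendritic cell genes 55.6 and 45.3 CPM, and over 6 innate lymphoid genes, some of which T cells share, 1512 and 1522 CPM. Of 5 mast cell and basophil genes members held no UMI. Haemoglobin genes went the other way. The 5 erythroid genes summed to 32.2 CPM in members and 1420 CPM in comparison cells, and 13 comparison cells but no member held 3 or more haemoglobin UMIs. Hbb-bs, Hba-a2, Hba-a1 and Hbb-bt are therefore among the 15 lowest genes by ratio, and 184 of 601 Hbb-bs UMIs lay in 1 comparison cell. With cells that held 3 or more UMIs of haemoglobin, macrophage or neutrophil genes left out, a choice made after seeing the data, the type 17 lists had 17 of 24 genes higher and none lower.

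The gate had soft edges. Cells that failed only the Cd3 limit numbered 124. The rule required Trdc or Trgc1 of each, and 108 of them held Trdc, 2 held Trdv4 and 14 (11.3%) held a type 17 UMI. Cells that met all conditions but held 1 Cd3 UMI numbered 34, and 7 of them (20.6%) had a type 17 UMI, against 9 of 27 members with 2 Cd3 UMIs (33.3%) and 59 of 118 with 3 or more (50.0%). By receptor UMIs, the share was 4.32% at 0, 14.8% at 1, 39.1% at 2 and 57.9% at 3 or more. Cells kept out by a single other condition included 27 with a Cd8 UMI, 13 with an Ncr1 UMI and 8 with a Cd4 UMI. By scrublet doublet score, 4 of 145 members and 13 of 533 comparison cells were in the top 5% of the library.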

How the data were processed

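Cells of mouse ascites were captured with the BD Rhapsody HT system, and whole transcriptome libraries were sequenced. The deposited values are UMI counts per gene and cell that the authors made with the BD Rhapsody pipeline on GRCm39 per the labels; putative multiplets were identified by the authors, and whether they were removed before deposit is not stated. Cells with 200 or more genes and up to 33% mitochondrial UMIs were kept, the limits of the study, and 45178 of 46342 cells remained. Total counts were 78603888 to 114600397 per library. Counts were summed over cells, scaled to CPM and compared as log2 ratios after adding 1 CPM, for genes with 30 or more UMIs, with exact Poisson, Clopper-Pearson and binomial-share intervals (numpy 2.4.6, scipy 1.17.1). The ratio and its interval were tested on simulated data. No doublet was removed; scrublet scores (scanpy 1.11.5) gave an alternative. Named genes are those of fixed lists plus the 20 highest and 15 lowest ratios, without V segments and genes of the gate. Genes singled out between members with and without Trdv4 were chosen after their values were seen. Members and lists were chosen with earlier results of these data known. Files named Tcrg-C1 as Trgc1 and Cd163l1 as Scart1. Some genes of these lists, 1 of them in the type 17 share, are not reported here and were left out of the lists and that share. Floors take 3 counts. Alternatives changed the receptor UMIs asked, doublets, mitochondrial limit, depth, scaling, pseudocount, UMI minimum, thinning and comparison cells.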

Additional observations from a re-analysis of the deposited data

How the results depend on the processing

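No paired analysis was possible because each group was 1 library, and for the same reason no replicate could be left out. The share of BTYNB cells, 0.793%, became 0.656% with a Trdc UMI required, 0.645% with 2 receptor UMIs required, 0.957% without cells of more than 10000 UMIs, 1.04% without cells holding other cells' RNA and 0.0906% among cells as deep as the smallest combination cell. The share of the CD3 gate, 6.59%, became 5.45% and 5.36% under the first 2 of these, and the share with a V segment 60.8% and 60.2%. Of genes past 2-fold, a pseudocount of 10 CPM left 116 lower, a minimum of 100 UMIs left 70 higher and 38 lower, and a minimum of 1 UMI gave 2110 higher and 2393 lower.

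Of 93 named genes with 1116 recomputed log2 ratios, only the 52 past 2-fold could count as reversed. Some genes inside that limit changed sign uncounted, such as Id3 and Tnf with 2 receptor UMIs required and Klrc2 with a Trdc UMI required. The reversals counted were in genes of the deepest member, in Gzma and in haemoglobin. With 2 receptor UMIs required, which leaves that member out, Cxcl13 and Cxcl5 were at -1.55, Slpi -2.54, Saa3 -5.44, Steap4 -1.96, Pdgfra -2.95, Col1a1 -4.20 and Col1a2 -4.41. Without cells of more than 10000 UMIs, Cxcl13 and Cxcl5 were at -1.56, Slpi -2.55, Saa3 -5.45, Pdgfra -2.97, Col1a1 -4.21 and Col1a2 -4.42. Without cells holding other cells' RNA, Cxcl13 and Cxcl5 were at -1.60, Slpi -2.60, Saa3 -5.51, Steap4 -2.02, Pdgfra -3.02, Col1a1 -4.27, Col1a2 -4.48, Hba-a1 0.26 and Hbb-bt 0.55. Between 1000 and 3000 UMIs, Slpi and Pdgfra were at -1.77, Saa3, Col1a1 and Col1a2 -1.14, and Gzma -0.86. Cxcl13 and Cxcl5 were at 0 there because no UMI was left on either side. They are counted as reversed but show no change of direction in that band. Thinning, doublet scores and the mitochondrial limit kept the shares within their counting intervals. The comparison cells mattered most by count. Against CD4 T cells 47 of the 93 log2 ratios moved beyond their counting interval, and against CD8 T cells 40. None of the 52 genes past 2-fold reversed there, and sign changes in the other genes were not counted. The other alternatives moved or reversed 0 to 18 each.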
